A study of Homo sapiens with 10 samples.

Results

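The comparison described here is the XPO1 inhibitor given alone against control in PLC and 97H, liver cancer cell lines named as in the labels. It takes 4 of the 10 libraries of the series: the XPO1 inhibitor library and the control library of PLC, and the same pair of 97H, chosen by their labels and paired by line. The inhibitor is KPT330 (selinexor) and control cells received vehicle. The other 6 libraries are the combination and the CDK4/6 inhibitor in PLC and 97H, used below as a second setting for the same inhibitor, and 2 Huh7 libraries without an XPO1 inhibitor arm. No genotype change or other agent is named for any group. Each line and treatment has 1 library, so the replicate is the cell line, each line is a single established culture, and a difference within 1 line has no test. The sources used here give no dose, exposure time or batch.

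XPO1 (exportin 1, CRM1) is the nuclear export receptor that binds cargo proteins carrying a leucine-rich export signal together with RanGTP and moves them through the nuclear pore, where RanGTP hydrolysis releases them. Its cargo includes tumour suppressors and their regulators, such as p53, FOXO factors, RB1, the NF-kappaB inhibitor NFKBIA and the cyclin-dependent kinase inhibitors, as well as ribosomal subunits and some RNAs. Selinexor binds the cargo groove of XPO1, so that cargo is held in the nucleus. The table measures RNA and not where a protein lies.

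Expression is in FPKM, a read density per transcript length corrected for library size, as computed by the authors. Differences are log2 ratios of FPKM + 1, inhibitor over control, which understate the change of genes at low FPKM. Of 20030 entries, 10221 genes averaged 1 FPKM or more over the 8 PLC and 97H libraries and were tested with limma, with the line as a block and Benjamini-Hochberg adjustment over all tested genes. The depth of the libraries is unknown. The 4 libraries had 14033 to 14521 genes above 0 FPKM.

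Ranked by the smaller of the ratios in PLC and 97H, the first 5 genes higher with the inhibitor in both lines were CYR61 and CTGF, which encode secreted matrix-associated proteins known as YAP targets, the phosphatase gene DUSP15, the focal adhesion scaffold gene NEDD9 and the myosin light chain gene MYL9. The first 4 lower genes were BHLHA15, a transcription factor of secretory cells, BATF3, a factor of the AP-1 family, the endoplasmic reticulum gene SDF2L1 and the prohibitin gene PHB2. XPO1 itself was 2.35 higher on the log2 scale in PLC and 0.25 higher in 97H. With limma no gene passed an adjusted p under 0.05 (0 of 10221, 0.0%), and the smallest adjusted p was 0.0833, for CYR61. At an unadjusted p under 0.05, 198 genes were higher (1.94%) and 74 lower (0.724%), 272 in all or 2.66%, where 5% would have such a p if no gene changed. The count of calls was 10 without the PLC CDK4/6 inhibitor library, 19 without the 97H one, 2 without the PLC XPO1 inhibitor library and 5 without the 97H one, and 0 without any other of the 8. With 1 library per line and treatment, the values below are therefore levels and ratios, and "higher" and "lower" describe these libraries.

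Over the whole table the size and sign of the ratios differed between the lines. In PLC 2355 genes differed at least 2-fold, 1724 higher (16.9%) and 631 lower (6.17%). In 97H 279 did, 224 higher (2.19%) and 55 lower (0.538%). The log2 ratios had an SD of 0.8 across genes in PLC and 0.43 in 97H, with medians of 0.16 and -0.025. In PLC 57.8% of tested genes were higher and 41.5% lower, and in 97H 46.6% were higher and 52.9% lower. The sign was opposite in the lines for 60.4% of genes. The Spearman correlation of the PLC and 97H ratios across genes was -0.272, a description over genes, which are not independent replicates.

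The ratios of the 2 lines followed the GC content of the transcripts in opposite directions. In PLC the log2 ratio was lower the higher the GC content across 10199 genes (Spearman rho -0.717): the median was 0.81 in 1926 genes under 42% GC and -0.62 in 1802 genes at or above 60% GC. In 97H the order was the reverse and flatter (rho 0.467), with a median of -0.28 in the GC-poor genes and 0.19 in the GC-rich ones. Transcript length was related less, with rho of 0.208 in PLC and -0.056 in 97H. Set against the mean of its own line, the PLC XPO1 inhibitor library had a rho with GC content of -0.674, the PLC combination library 0.285, the PLC CDK4/6 inhibitor library -0.644 and the PLC control library 0.608. In 97H the XPO1 inhibitor library was near flat at -0.018, the combination library at -0.036, the CDK4/6 inhibitor library at 0.68 and the control library at -0.533. Both control libraries thus stood away from their line's mean, in opposite directions, and so did both CDK4/6 inhibitor libraries. With 1 library per line and treatment, a property of a library and an effect of its treatment cannot be told apart.

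**Figure D1:**
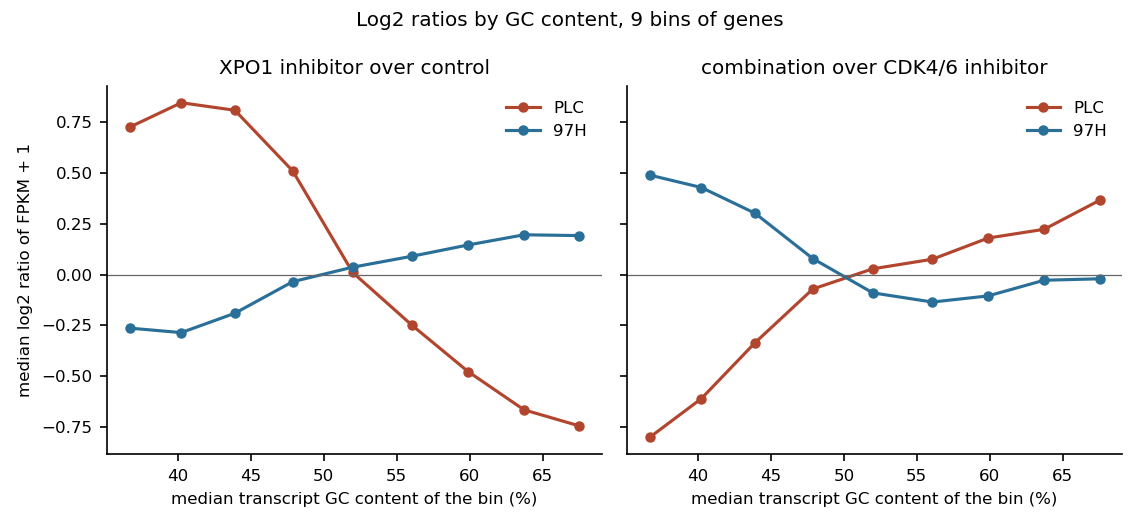
Median log2 ratio of FPKM + 1 (vertical axis) in 9 bins of genes by transcript GC content in percent (horizontal axis), for the XPO1 inhibitor over control (left) and the combination over the CDK4/6 inhibitor (right), with PLC in red and 97H in blue. In the left panel PLC runs from 0.723 in the bin of lowest GC content to -0.743 in the highest while 97H runs the other way, and in the right panel the 2 lines change places.

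Results below are therefore also given after smooth trends on GC content and length were removed from each library. With the trends removed, 682 genes in PLC and 217 in 97H differed at least 2-fold, 50.1% of genes were higher in PLC and 48.6% in 97H, 26.1% were higher and 27.4% lower in both lines, opposite signs made up 46.5% of genes, and the correlation of the lines was 0.114. The median of all genes in PLC moved by -0.16, as it did under quantile normalization, and by -0.17 under median ratio scaling, while the 97H median moved by at most 0.037. A PLC ratio between 0 and 0.16 is therefore no difference from the bulk of genes.

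**Figure D2:**
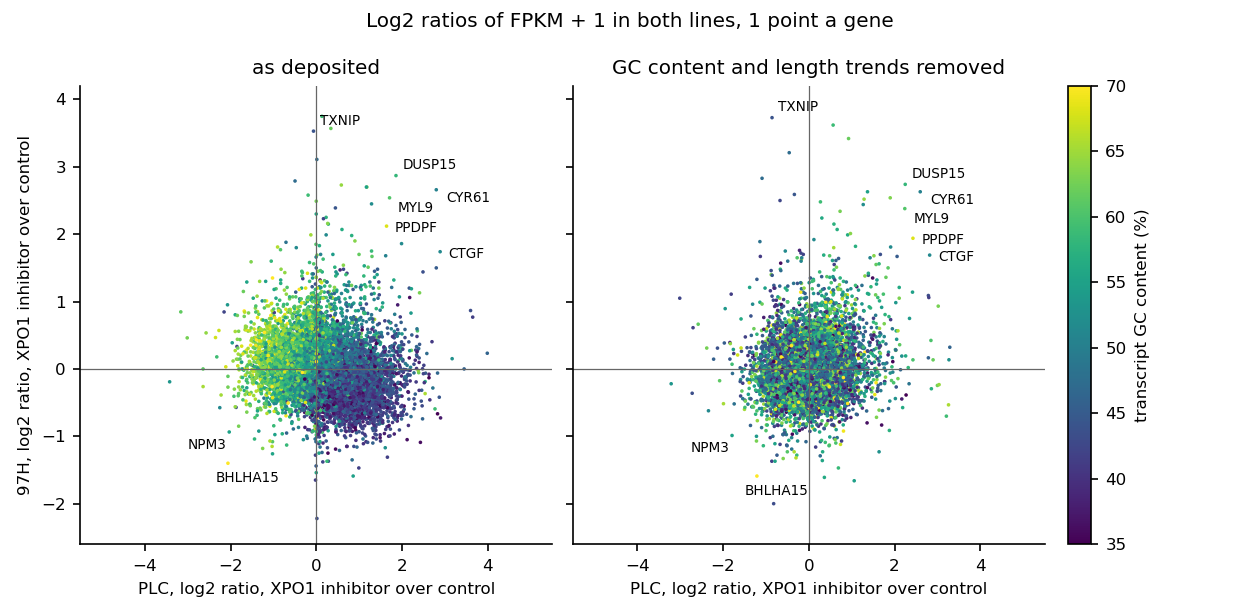
Log2 ratio of FPKM + 1, XPO1 inhibitor over control, in PLC (horizontal axis) and 97H (vertical axis), with 1 point for each gene that has a GC content, coloured by transcript GC content in percent. In the left panel, as deposited, GC-poor genes lie to the lower right and GC-rich genes to the upper left (rho between the lines -0.272), and in the right panel, with trends removed, the colours mix (rho 0.114) while CYR61, DUSP15, CTGF, MYL9 and PPDPF keep their place at the upper right.

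In all, 48 genes (0.47%) were at least 2-fold higher and 7 (0.0685%) at least 2-fold lower in both lines, and 2212 (21.6%) were higher and 1719 (16.8%) lower in both lines at any size. The 15 genes on each side with the largest smaller ratio of the 2 lines are described next. They were chosen on these ratios, so their direction is a description. With the trends removed all 15 higher genes stayed higher and all 15 lower genes stayed lower in both lines, and their median GC content was 51.6% and 58.6%, against 50.5% in all tested genes.

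CYR61 (chromosome 1, 85580761 to 85583962 in GRCh38) encodes a secreted protein that binds integrins and is induced by the YAP coactivator. In PLC it stood at 267.5 FPKM with the inhibitor against 37.58 FPKM in control, and in 97H at 62.06 FPKM with the inhibitor against 8.967 FPKM in control. Both inhibitor libraries lay above both control libraries. The log2 difference was 2.73 (SE 0.33, limma adjusted p = 0.0833, n = 2 lines), 2.80 in PLC and 2.66 in 97H, and 2.62 with the trends removed, where its adjusted p was 0.0405. CYR61 also passed under quantile normalization and median ratio scaling.

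CTGF, a second matricellular YAP target, stood in PLC at 105.8 FPKM with the inhibitor against 13.43 FPKM in control. In 97H it stood at 37.12 FPKM with the inhibitor against 10.41 FPKM in control, so that the groups did not overlap. Its log2 difference was 2.31 (SE 0.41, limma adjusted p = 0.399, n = 2 lines). ANKRD1, a nuclear ankyrin-repeat YAP target named here after its values were seen, was higher by 3.60 in PLC and 0.87 in 97H, and AMOTL2, a scaffold protein that holds YAP in the cytoplasm, by 1.13 and 1.25. TIMP2, an inhibitor of matrix metalloproteinases, was higher by 1.94 in PLC and 1.07 in 97H. Of 24 tested YAP target and extracellular matrix genes 13 were higher in both lines (54.2%, against 21.6% of all genes) and none was lower in both, with PLC at a median of 0.33 and 97H at 0.87 (0.28 and 0.83 with the trends removed). At an unadjusted p under 0.05, 7 of the 24 were higher, beside 1.94% of all genes, and none passed after adjustment. The members of this and the other lists were chosen with earlier results of these data known. The shares of the lists beside those of all genes are therefore descriptions and not tests. Among matrix genes proper the lines differed: SPARC, a collagen-binding glycoprotein, was -0.49 in PLC and 2.79 in 97H, and the laminin gene LAMA5 -1.37 and 0.85.

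YAP acts through TEAD factors, which bind the letters GGAATG. To show where these letters lie beside genes that were higher together, the 250 bases upstream of the start are given for CTGF (entered as CCN2 in RefSeq, GRCh38.p14, chr6:131951373-131951622, minus strand) and ANKRD1 (chr10:90921088-90921337, minus strand), 5′ to 3′, with matches to the letters or their reverse complement in capitals.
CTGF: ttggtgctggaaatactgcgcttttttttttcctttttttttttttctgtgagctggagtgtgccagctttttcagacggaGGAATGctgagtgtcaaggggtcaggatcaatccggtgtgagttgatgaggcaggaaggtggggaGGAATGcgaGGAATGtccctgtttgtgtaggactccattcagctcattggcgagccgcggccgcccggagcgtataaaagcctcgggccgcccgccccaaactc
ANKRD1: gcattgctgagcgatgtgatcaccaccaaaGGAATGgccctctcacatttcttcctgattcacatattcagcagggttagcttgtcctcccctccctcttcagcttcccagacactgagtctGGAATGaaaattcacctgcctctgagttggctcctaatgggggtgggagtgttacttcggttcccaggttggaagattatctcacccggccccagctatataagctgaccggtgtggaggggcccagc
CTGF has 3 matches, which begin 169, 104 and 95 bases before the start, and ANKRD1 has 2, at 220 and 128 bases. Of 35116 RefSeq promoters of the same length 4175 hold at least 1 match (11.9%), and of the 19 tested genes of the YAP and matrix list with an entry 8 do. The first count is of promoters. In the second a gene counts if any of its promoters holds a match, so the 2 shares are not on the same footing. A match is a run of letters and not a measured binding site. CYR61 is named only.

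DUSP15, a dual-specificity phosphatase gene, stood in PLC at 3.667 FPKM with the inhibitor against 0.2832 FPKM in control. In 97H it stood at 6.819 FPKM with the inhibitor against 0.07273 FPKM in control. It was near silent in both controls and present in both inhibitor libraries, with a log2 difference of 2.36 (SE 0.40, limma adjusted p = 0.399, n = 2 lines). DUSP15 was under 1 FPKM in every PLC and 97H library without the XPO1 inhibitor. It therefore passed the filter on mean FPKM only through the libraries where it was high. DUSP1, whose product inactivates MAP kinases, was at 138.4 FPKM with the inhibitor against 53.36 FPKM in control in PLC, and at 23.47 FPKM with the inhibitor against 8.533 FPKM in control in 97H, a log2 ratio of 1.36 in each line. DUSP6, the phosphatase of ERK, was higher by 1.8 in PLC and by 0.20 in 97H. Of 26 tested immediate-early and ERK output genes 13 were higher and 3 lower in both lines, beside 21.6% and 16.8% of all genes. Over the 26, PLC had a median of 0.40 and 97H one of 0.12. EGR1, an immediate-early transcription factor, was among the lower genes, at 1.684 FPKM with the inhibitor against 4.427 FPKM in control in PLC, and at 3.367 FPKM with the inhibitor against 9.488 FPKM in control in 97H.

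MYL9, the regulatory light chain of non-muscle and smooth muscle myosin, stood in PLC at 247.6 FPKM with the inhibitor against 75.15 FPKM in control. In 97H it stood at 29.33 FPKM with the inhibitor against 4.205 FPKM in control, a log2 difference over both lines of 2.13 (SE 0.36). The lines differ so much in level that the 97H inhibitor library lies under the PLC control. NEDD9, a scaffold of focal adhesions, stood in PLC at 9.795 FPKM with the inhibitor against 1.71 FPKM in control, and in 97H at 5.641 FPKM with the inhibitor against 0.8264 FPKM in control. Its ratios of 1.99 and 1.86 hardly moved with the trends removed (1.91 and 1.81).

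PPDPF, a gene named for pancreatic progenitor differentiation and proliferation, was the most abundant of the 15. In PLC it stood at 613.7 FPKM with the inhibitor against 196.6 FPKM in control, and in 97H at 185.6 FPKM with the inhibitor against 42.03 FPKM in control. Its transcripts are 68.2% GC, so the PLC trend ran against it, and its log2 difference of 1.88 (SE 0.32) was 2.18 with the trends removed, with a limma adjusted p of 0.0405. PIM1, a serine/threonine kinase gene, was higher by 1.81 in PLC and 1.32 in 97H, and TUFT1 (tuftelin) by 1.62 and 1.68. DDB2, a nucleotide excision repair factor and p53 target, was at 47.19 FPKM with the inhibitor against 16.98 FPKM in control in PLC, and at 16.73 FPKM with the inhibitor against 5.697 FPKM in control in 97H.

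The others were UBD, a ubiquitin-like modifier (2.49 in PLC and 1.44 in 97H), ANXA3, a phospholipid-binding annexin (2.80 and 1.5), EDN1, the vasoconstrictor peptide endothelin (1.43 and 1.48), PHYH, a peroxisomal hydroxylase (1.36 and 1.45), and HAPLN3, a link protein of hyaluronan (1.30 and 1.67). UBD, ANXA3, EDN1 and PHYH have GC contents of 43.5% to 45.3%, where the PLC trend adds to the ratio. With the trends removed their PLC ratios were 1.67, 2.06, 0.70 and 0.63. Over all 15, limma SEs ran from 0.32 to 0.67 and log2 differences from 1.36 to 2.73.

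**Figure D3:**
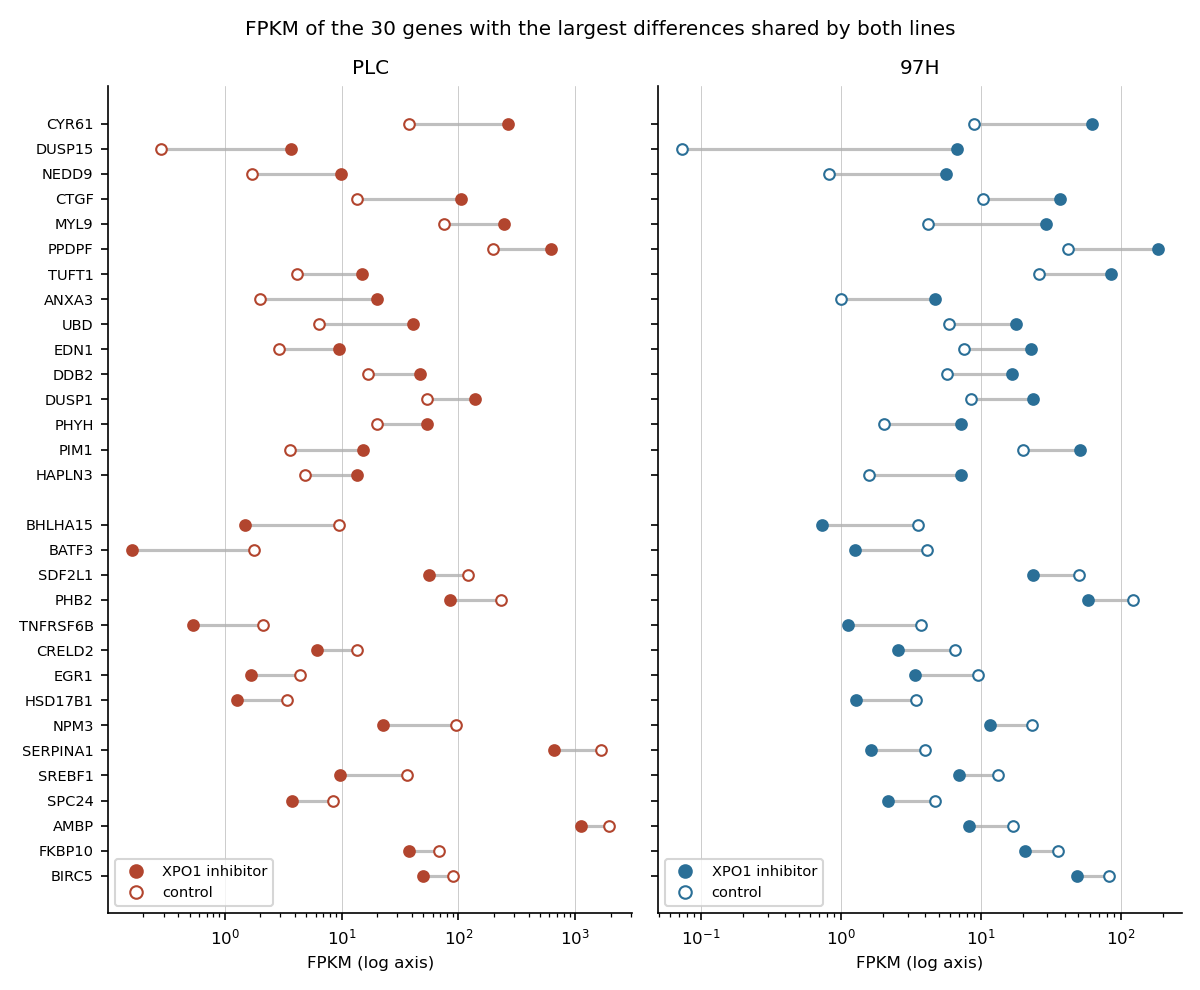
FPKM (log axis) of the 15 genes higher (top) and 15 lower (bottom) in both lines, in PLC (left) and 97H (right), with the XPO1 inhibitor library as a filled point and the control library as an open point, 1 library each. Every bar joins 2 libraries and none is an error bar. CYR61 runs 267.5 against 37.58 FPKM in PLC, and SERPINA1 runs 661.7 against 1673 FPKM in PLC but 1.648 against 4.021 FPKM in 97H.

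On the lower side, BHLHA15 (MIST1), which drives the secretory apparatus of gland cells, had the largest shared ratio. In PLC it stood at 1.504 FPKM with the inhibitor against 9.459 FPKM in control, and in 97H at 0.7398 FPKM with the inhibitor against 3.578 FPKM in control. Its log2 difference was -1.73 (SE 0.45, limma adjusted p = 0.968, n = 2 lines). SDF2L1, an endoplasmic reticulum protein induced by unfolded proteins, stood in PLC at 55.94 FPKM with the inhibitor against 119.5 FPKM in control, and in 97H at 23.64 FPKM with the inhibitor against 50.66 FPKM in control. CRELD2, induced in the same setting, stood in PLC at 6.132 FPKM with the inhibitor against 13.49 FPKM in control, and in 97H at 2.545 FPKM with the inhibitor against 6.516 FPKM in control. All of these transcripts are over 60% GC, and with the trends removed the PLC ratios shrank to -1.21 for BHLHA15, -0.34 for SDF2L1 and -0.50 for CRELD2, while the 97H ratios were -1.59, -1.23 and -1.23.

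The list of endoplasmic reticulum chaperones, which holds SDF2L1 and CRELD2, split by line. Of 19 tested 16 were lower in 97H (background 52.9%) and 15 were higher in PLC (background 57.8%). HSPA5 (BiP), the main chaperone of this compartment, named after its values were seen, was 0.58 in PLC and -0.91 in 97H, and HSP90B1 1.37 and -0.97. With the trends removed the median over the list stood at 0.15 for PLC and -0.52 for 97H. HERPUD1, a part of the degradation pathway of this compartment, was higher by 0.55 in PLC and 0.50 in 97H before removal. After removal it was near 0 in PLC, at 0.07, and at 0.54 in 97H. The endoplasmic reticulum stress element, CCAAT and CCACG with 9 bases of any kind between them, is the sequence that NF-Y and ATF6 recognise. The 250 bases upstream of the start are shown for CRELD2 (chr22:49918384-49918633, plus strand) and SDF2L1 (chr22:21642052-21642301, plus strand), from RefSeq on GRCh38.p14, since both genes were lower together, with a match on either strand in capitals.
CRELD2: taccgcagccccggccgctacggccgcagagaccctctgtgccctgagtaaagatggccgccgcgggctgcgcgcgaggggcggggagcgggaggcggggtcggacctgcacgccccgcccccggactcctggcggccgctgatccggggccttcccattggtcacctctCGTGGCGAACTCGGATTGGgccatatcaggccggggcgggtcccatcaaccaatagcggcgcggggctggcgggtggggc
SDF2L1: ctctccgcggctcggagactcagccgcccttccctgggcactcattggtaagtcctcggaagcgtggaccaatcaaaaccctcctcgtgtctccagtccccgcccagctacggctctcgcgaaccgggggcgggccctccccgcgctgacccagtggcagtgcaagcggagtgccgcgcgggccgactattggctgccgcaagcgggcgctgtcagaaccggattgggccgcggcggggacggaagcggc
CRELD2 has 1 match, which begins 80 bases before the start, and SDF2L1 has none in this window. The element is rare, in 26 of 35116 promoters (0.074%), and 7 of the 18 listed chaperone genes with an entry hold it. No overlap with another motif was searched for.

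PHB2, a scaffold of the mitochondrial inner membrane, stood in PLC at 84.5 FPKM with the inhibitor against 231.2 FPKM in control, and in 97H at 58.86 FPKM with the inhibitor against 122.5 FPKM in control. Both inhibitor libraries lay under both control libraries. NPM3, a nucleolar histone chaperone, stood in PLC at 22.67 FPKM with the inhibitor against 95.5 FPKM in control, and in 97H at 11.65 FPKM with the inhibitor against 23.21 FPKM in control. With the trends removed PHB2 was at -1.06 in PLC and -1.14 in 97H, and NPM3 at -1.79 and -0.99, close to the ratios of -1.44 and -1.04 and of -2.03 and -0.94 as deposited.

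Of the remaining lower genes, SREBF1, the transcription factor of fatty acid synthesis, was lower by 1.81 in PLC and 0.85 in 97H. SPC24, a kinetochore part, was at -0.99 and -0.84, and BIRC5 (survivin) at -0.85 and -0.75. BATF3, an AP-1 family factor, was at 0.1609 FPKM with the inhibitor against 1.769 FPKM in control in PLC, and at 1.269 FPKM with the inhibitor against 4.136 FPKM in control in 97H. TNFRSF6B, a soluble decoy receptor of FAS ligand, HSD17B1, which makes estradiol, and FKBP10, a prolyl isomerase for collagen, had ratios between -0.76 and -1.15 in both lines. SERPINA1 and AMBP are plasma protein genes and are taken up with the hepatocyte genes. Over the 15, limma SEs ran from 0.28 to 0.54 and unadjusted p from 0.00223 to 0.0596.

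XPO1, the target of the inhibitor, is known from other cells to have more mRNA when its protein is inhibited. In PLC it stood at 48.32 FPKM with the inhibitor against 8.655 FPKM in control, and in 97H at 19.18 FPKM with the inhibitor against 15.95 FPKM in control. Both inhibitor libraries exceeded both controls, but the 97H pair lay close. Its transcripts are 37.9% GC, and with the trends removed the ratios were 1.52 in PLC and 0.50 in 97H. Over both lines the log2 difference was 1.30 (SE 0.56, limma adjusted p = 0.968), and 0.44 without the PLC control library. Among genes known from other cells to answer XPO1 inhibition, NGFR, a neurotrophin receptor, was at 5.155 FPKM with the inhibitor against 0.1561 FPKM in control in PLC, and in 97H at 1.186 FPKM with the inhibitor, while the control was listed at 0. ARRDC3, an arrestin-like adaptor, was higher by 1.90 in PLC and 0.95 in 97H, and SLC43A2, an amino acid transporter, by 1.29 and 1.75. TXNIP, a thioredoxin inhibitor and FOXO target, was at 22.94 FPKM with the inhibitor against 1.075 FPKM in control in 97H, and in PLC at 0.03938 FPKM with the inhibitor against 0.08636 FPKM in control, so it was near silent in PLC with or without the drug. Of the 5, 4 were higher in both lines, beside 21.6% of all genes, and 4 were higher at an unadjusted p under 0.05, beside 1.94% of all genes. The 5 were chosen with earlier results of these data known, so these counts are descriptions.

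The other exportins were not higher in both lines, except XPO6, the exportin of actin, at 0.26 and 0.41. CSE1L, which returns importin alpha to the cytoplasm, was 0.20 in PLC and -0.89 in 97H, and -0.64 and -0.61 with the trends removed. XPOT, the exportin of tRNA, was 1.13 and -0.97, XPO5, of microRNA precursors, 0.19 and -0.44, and XPO7 0.63 and -0.15. CSE1L and XPOT are GC-poor, at 39.2% and 40.8%. Of 9 Ran cycle genes none was higher in both lines (against 21.6% of all genes) and 4 were lower in both (44.4%, against 16.8%). RCC1, the exchange factor that makes RanGTP in the nucleus, was at -0.82 and -0.44. Importins, with a median GC content of 43.5%, were higher in PLC (12 of 16, background 57.8%) and lower in 97H (13 of 16, background 52.9%). With trends removed 11 of 16 were higher in PLC, beside 50.1% of all genes, and their PLC median went from 0.94 to 0.15. In 97H 15 of 16 were then lower, beside 51.4% of all genes. In the combination over the CDK4/6 inhibitor 14 of 16 were lower in PLC (background 57.4%) and 8 in 97H (background 42.9%). IPO4, an importin of histones and ribosomal proteins, was at 24.81 FPKM with the inhibitor against 96.63 FPKM in control in PLC, and at 22.51 FPKM with the inhibitor against 30.16 FPKM in control in 97H. KPNA2 (importin alpha) was 0.14 in PLC and -1.24 in 97H. Of 28 nuclear pore genes 18 were higher in PLC (background 57.8%) and 23 lower in 97H (background 52.9%), with a list median of -0.33 in 97H and of 0.40 in PLC, which turned to -0.15 with the trends removed.

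Genes for proteins that XPO1 carries were counted too, since their mRNA and their place in the cell are separate quantities. Of 20 tested, 7 were higher and 2 lower in both lines, beside 21.6% and 16.8% of all genes. With the trends removed 8 of the 20 were higher and 8 lower in both lines, beside 26.1% and 27.4% of all genes. CDKN1A (p21) stood in PLC at 16.13 FPKM with the inhibitor against 4.19 FPKM in control, and in 97H at 42.43 FPKM with the inhibitor against 26.02 FPKM in control. RB1 was higher by 1.17 and 0.11, and by 0.39 and 0.37 with the trends removed. The list median of 0.35 in PLC turned to -0.08 with the trends removed.

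FOXO target genes were among the lists with the largest share of members higher in both lines: 9 of 13 (69.2%, against 21.6% of all genes), with none lower in both. The members were chosen with earlier results of these data known, so this share is a description. The PLC median was 0.51 and that of 97H 0.66, or 0.48 and 0.68 with the trends removed. KLF6, a zinc finger factor, was at 44.85 FPKM with the inhibitor against 9.911 FPKM in control in PLC, and at 20.82 FPKM with the inhibitor against 13.54 FPKM in control in 97H. CCNG2, an atypical cyclin of arrested cells, was higher by 1.74 and 0.69, and INSR, the insulin receptor, by 1.32 and 0.70. The 3 had unadjusted p of 0.00961, 0.00994 and 0.025 and none passed after adjustment.

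Of 24 p53 target genes 10 were higher (41.7%) and 2 lower (8.33%) in both lines, beside 21.6% and 16.8% of all genes. With the trends removed 10 of the 24 were higher and 7 lower in both lines, beside 26.1% and 27.4% of all genes. Besides DDB2 and CDKN1A, GDF15, a secreted stress cytokine, was at 564.2 FPKM with the inhibitor against 258.7 FPKM in control in PLC, and at 53.52 FPKM with the inhibitor against 29.81 FPKM in control in 97H. The PLC median was 0.40, while in 97H the list stood near 0, at 0.03. Of 16 BCL2 family genes 8 were higher and 2 lower in both lines. BMF, a pro-apoptotic member that binds other BCL2 proteins, was at 13.21 FPKM with the inhibitor against 5.251 FPKM in control in PLC, and at 21.46 FPKM with the inhibitor against 2.466 FPKM in control in 97H. BCL2L1 (BCL-XL), its anti-apoptotic relative, was higher by 0.54 and 0.29. The BCL2 family median in PLC, 0.39, was -0.02 under quantile normalization.

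NF-kappaB target genes were higher in PLC in 19 of 21 cases (background 57.8%) and in 97H in 15 (background 46.6%). Of the 21, 13 were higher in both lines (61.9%, against 21.6% of all genes) and none was lower in both. The PLC median was 1.15 and that of 97H 0.21, or 0.74 and 0.14 with the trends removed. SDC4 (syndecan), a heparan sulfate proteoglycan, was at 163.4 FPKM with the inhibitor against 68.25 FPKM in control in PLC, and at 103.2 FPKM with the inhibitor against 41.6 FPKM in control in 97H. The chemokine gene CXCL1 was at 79.87 FPKM with the inhibitor against 19.49 FPKM in control in PLC, and at 1.194 FPKM with the inhibitor against 0.3592 FPKM in control in 97H. CXCL8 (interleukin-8), named after its values were seen, was 2.83 in PLC and -0.67 in 97H, and BIRC3, an inhibitor of apoptosis, 2.63 and -0.13. NFKBIZ, a nuclear member of the NF-kappaB inhibitor family, was higher in both lines, by 1.47 and 1.10. The overlapping list of secretory genes of senescent cells had 11 of 28 higher (39.3%, against 21.6% of all genes) and none lower in both lines.

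The cell-cycle lists were lower in 97H and mixed in PLC. Every one of the 32 tested G2 and mitosis genes was lower in 97H (background 52.9%), with a median of -0.75. In PLC 14 of the 32 were lower (background 41.5%) and the median was 0.14, but -0.13 under median ratio scaling and -0.45 with the trends removed, when 28 of the 32 were lower (background 49.9%). MYBL2, a transcription factor of mitotic genes, was at 48.21 FPKM with the inhibitor against 159.6 FPKM in control in PLC, and at 55.42 FPKM with the inhibitor against 76.58 FPKM in control in 97H. BIRC5 was at 49.85 FPKM with the inhibitor against 90.36 FPKM in control in PLC, and at 48.59 FPKM with the inhibitor against 82.37 FPKM in control in 97H, so that both inhibitor libraries lay under both controls. The kinase gene AURKB, of the same complex as survivin, was at -1.09 and -0.64. Those lower in both lines include GC-rich MYBL2 (59.9% GC), while ANLN (anillin, 40.0% GC) was 1.10 in PLC and -1.11 in 97H.

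Of 44 DNA replication and S phase genes 22 were lower in PLC (background 41.5%) and 39 in 97H (background 52.9%), with PLC at a median of -0.07 and 97H at -0.34, or at -0.35 and -0.34 with the trends removed. CDT1, which licenses origins, was at 17.35 FPKM with the inhibitor against 49.47 FPKM in control in PLC, and at 19.38 FPKM with the inhibitor against 25.79 FPKM in control in 97H. ASF1B, a histone chaperone of replication, was at -0.88 in PLC and -0.35 in 97H. All 12 homologous recombination genes were lower in 97H (background 52.9%), with a median of -0.56, and their PLC median of 0.36 was -0.31 with the trends removed. XRCC3, a recombination protein, was at -1.66 in PLC and -0.38 in 97H.

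Ribosomal protein genes were mostly lower in both lines, and ribosome biogenesis and proteasome genes were mostly lower in 97H. Of 79 cytosolic ribosomal protein genes 55 were lower in both lines (69.6%, against 16.8% of all genes) and none was higher in both. The PLC median was -0.42 and that of 97H -0.20, or -0.61 and -0.16 with the trends removed. RPS2, a part of the small subunit, was at 2205 FPKM with the inhibitor against 4544 FPKM in control in PLC, and at 2857 FPKM with the inhibitor against 3721 FPKM in control in 97H. These are small ratios, and 1 of the 79 had an unadjusted p under 0.05. Reads of ribosomal protein genes and their many pseudogenes cannot be assigned with certainty. Of 40 ribosome biogenesis genes 20 were lower in PLC (background 41.5%) and 38 in 97H (background 52.9%). Of the 40, 18 were lower in both lines (45.0%, against 16.8% of all genes) and none was higher in both. BOP1, a large-subunit assembly factor, was at -2.22 in PLC and -0.39 in 97H, and FBL (fibrillarin) at -0.82 and -0.27. Of 31 proteasome genes 15 were lower in PLC (48.4%, background 41.5%), with a median of 0.04, and 29 were lower in 97H (93.5%, background 52.9%), with a median of -0.26. Of 42 oxidative phosphorylation genes 16 were lower (38.1%, against 16.8% of all genes) and 3 higher (7.14%, against 21.6%) in both lines.

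Lipid synthesis genes were lower in 97H as a group and split in PLC. Of 23 cholesterol synthesis genes 14 were lower in PLC (background 41.5%) and 22 in 97H (background 52.9%), 13 in both lines (56.5%, background 16.8%). The medians were -0.45 in PLC and -0.44 in 97H. DHCR7, the last enzyme of a branch of the pathway, was at 51.32 FPKM with the inhibitor against 135.6 FPKM in control in PLC, and at 33.84 FPKM with the inhibitor against 55.13 FPKM in control in 97H. INSIG1, the sterol-sensing brake on SREBP processing, was at -0.69 and -0.95, and LSS, which cyclises squalene epoxide, at -1.68 and -0.32. The early enzyme gene HMGCS1, named after its values were seen, was higher by 1.72 in PLC and stood at -0.64 in 97H. Of 12 fatty acid synthesis genes 7 were lower (58.3%, background 16.8%) and none higher in both lines. FASN was at 17.25 FPKM with the inhibitor against 112.8 FPKM in control in PLC, and at 44.96 FPKM with the inhibitor against 54.1 FPKM in control in 97H. With the trends removed all 12 were lower in 97H (background 51.4%) and 10 in PLC (background 49.9%). The PLC direction was not shared by the combination over the CDK4/6 inhibitor. There 15 of 23 cholesterol synthesis genes were higher in PLC (background 42.2%) and 8 in 97H (background 56.7%). Of the fatty acid synthesis genes 6 of 12 were higher in PLC and 2 in 97H, and FASN was 1.70 in PLC and -0.97 in 97H.

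Hepatocyte genes were lower in PLC in 24 of 28 cases (background 41.5%), with a median of -0.89 (-0.97 with the trends removed), while the 97H median was -0.01. In the combination over the CDK4/6 inhibitor 17 of the 28 were lower in PLC (background 57.4%), with a PLC median of -0.26. SERPINA1 (alpha-1 antitrypsin) was at 661.7 FPKM with the inhibitor against 1673 FPKM in control in PLC, and at 1.648 FPKM with the inhibitor against 4.021 FPKM in control in 97H. AMBP, the bikunin precursor, was at 1110 FPKM with the inhibitor against 1925 FPKM in control in PLC, and at 8.238 FPKM with the inhibitor against 17.01 FPKM in control in 97H. The apolipoprotein gene APOA2 was at 44.6 FPKM with the inhibitor against 487 FPKM in control in PLC, and at 2.22 FPKM with the inhibitor against 2.68 FPKM in control in 97H. In bulk RNA, fewer cells of a kind and less RNA per cell cannot be told apart. The 13 markers of hepatocytes and hepatoma cells were all above 0 in the 4 libraries, but outside KRT8 and KRT18 most were low in 97H, where 3 of 13 were under 1 FPKM with the inhibitor and 4 of 13 in control. The 20 markers of other cell types summed to 270.8 FPKM with the inhibitor against 54.74 FPKM in control in PLC, mostly LYZ (lysozyme, 234 against 17.8 FPKM), and to 486.2 FPKM with the inhibitor against 540.5 FPKM in control in 97H, mostly KRT19. Of the 20, 7 were at 0 in PLC with the inhibitor and 10 in PLC control, and 6 in each 97H library, and the blood marker PTPRC and the skin marker KRT5 were at 0 in all 4. Their part in the results was not tested.

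Autophagy genes were mostly higher in each line, and lysosome genes in 97H. Of 35 lysosome genes 18 were higher in PLC (51.4%, background 57.8%) and 27 in 97H (77.1%, background 46.6%). Of the 35, 13 were higher (37.1%) and 3 lower (8.57%) in both lines, beside 21.6% and 16.8% of all genes. The medians were 0.09 in PLC, which was -0.19 under median ratio scaling, and 0.29 in 97H. The proton pump subunit ATP6V1H was at 29.86 FPKM with the inhibitor against 14.1 FPKM in control in PLC, and at 33.31 FPKM with the inhibitor against 16.56 FPKM in control in 97H. Of 21 autophagy genes 15 were higher in PLC (71.4%, background 57.8%) and 17 in 97H (81.0%, background 46.6%). Of the 21, 12 were higher and 1 lower in both lines (57.1% and 4.76%, beside 21.6% and 16.8% of all genes). GABARAPL1, which coats autophagosomes, was at 61.31 FPKM with the inhibitor against 17.46 FPKM in control in PLC, and at 15.65 FPKM with the inhibitor against 6.218 FPKM in control in 97H. Its log2 difference was 1.48 (SE 0.34) and 1.24 in each line with the trends removed.

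Interferon-stimulated genes ran in opposite directions: 14 of 20 were lower in PLC (background 41.5%, median -0.70) and 18 of 20 higher in 97H (background 46.6%, median 0.44). Trend removal left this as it was, with medians of -0.66 and 0.36. ISG15, a ubiquitin-like protein, was at 85.96 FPKM with the inhibitor against 516.1 FPKM in control in PLC, and at 55.35 FPKM with the inhibitor against 37.89 FPKM in control in 97H. Of 13 antigen presentation genes 9 were lower in PLC (69.2%) and 10 higher in 97H (76.9%). Of the 13, 3 were higher (23.1%) and 2 lower (15.4%) in both lines, near the 21.6% and 16.8% of all genes. With the trends removed 7 of the 13 were higher in PLC (background 50.1%) and 10 in 97H (background 48.6%). The PLC median of this list went from -0.32 to 0.0024. Then 7 of the 13 were higher and 3 lower in both lines, beside 26.1% and 27.4% of all genes. PSMB9, an immunoproteasome subunit, was higher in both lines, by 1.05 and 1.18, while TAP2, a peptide transporter, was at -1.20 and -0.28.

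The stress lists had no common direction. Beside the lists that follow, 21.6% of all genes were higher and 16.8% lower in both lines. Of 26 integrated stress response genes 5 were higher (19.2%) and 8 lower (30.8%) in both lines. PPP1R15A, which ends the response by dephosphorylating its initiation factor, was at 25.17 FPKM with the inhibitor against 10.67 FPKM in control in PLC, and at 96.74 FPKM with the inhibitor against 41.01 FPKM in control in 97H. DDIT3 (CHOP) was higher by 1.75 and 0.60, and the serine enzyme gene SHMT2 was at -0.80 and -0.42. Of 19 heat shock genes 3 were higher and 3 lower in both lines (15.8% each), and the small heat shock gene CRYAB was higher by 1.29 in PLC and 2.45 in 97H. Of 17 histone genes 8 were higher and 3 lower in both lines, with reads of near-identical histone genes uncertain. HIST1H2AC was higher by 0.72 in PLC and 1.42 in 97H, but stood at -0.13 and 1.7 with the trends removed. Of 23 hypoxia and glycolysis genes 4 were higher (17.4%) and 8 lower (34.8%) in both lines, and of 22 NRF2 target and ferritin genes also 4 and 8 (18.2% and 36.4%). Of 14 reference genes, usually taken as stable, 2 were higher (14.3%) and 5 lower (35.7%) in both lines. Their medians were 0.12 in PLC, which was -0.31 with the trends removed, and -0.14 in 97H.

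**Figure D4:**
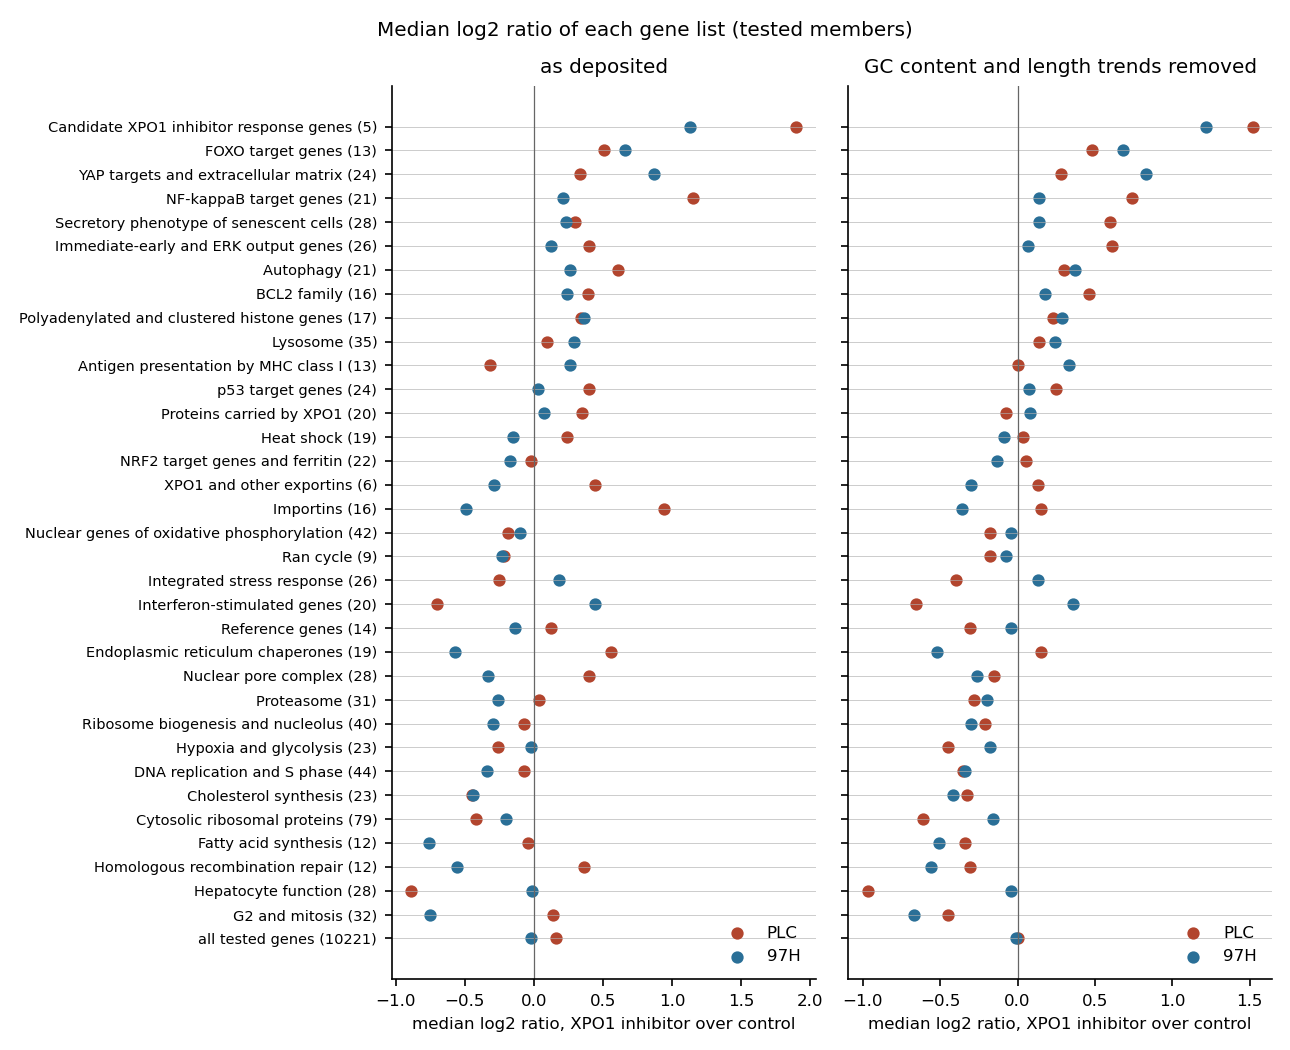
Median log2 ratio, XPO1 inhibitor over control (horizontal axis), of the tested members of 34 gene lists and of all tested genes, with the number of members in brackets, in PLC (red) and 97H (blue), as deposited (left) and with GC content and length trends removed (right). G2 and mitosis stands at 0.14 in PLC and -0.75 in 97H on the left and at -0.45 and -0.67 on the right, while FOXO targets lie between 0.48 and 0.68 in both panels.

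Some genes went at least 2-fold in opposite directions in the 2 lines. TFRC, the transferrin receptor, stood in PLC at 77.07 FPKM with the inhibitor against 23.7 FPKM in control, and in 97H at 15.93 FPKM with the inhibitor against 40.97 FPKM in control. CTSL, a lysosomal protease, stood in PLC at 59.52 FPKM with the inhibitor against 18.81 FPKM in control, and in 97H at 161.9 FPKM with the inhibitor against 364.6 FPKM in control. SLC2A1, the glucose transporter GLUT1, stood in PLC at 10.31 FPKM with the inhibitor against 24.68 FPKM in control, and in 97H at 107.9 FPKM with the inhibitor against 43.12 FPKM in control. CTSL and SLC2A1 kept ratios past 2-fold both ways with the trends removed (1.64 and -1.23, and -1.02 and 1.20), whereas TFRC, at 41.5% GC, was 0.77 and -1.07.

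The combination against the CDK4/6 inhibitor measures the same XPO1 inhibitor in cells that also had the CDK4/6 inhibitor, and shares no library with the comparison above. Of the 15 higher genes 11 were again higher in both lines (20.9% of all genes were) and 2 were at least 2-fold higher in both (0.303%). Of the 15 lower genes 13 were again lower in both lines (21.5%) and 4 were at least 2-fold lower in both (0.812%). DUSP15 stood in PLC at 8.335 FPKM with the combination against 0.3273 FPKM with the CDK4/6 inhibitor, and in 97H at 12.01 FPKM with the combination against 0.03107 FPKM with the CDK4/6 inhibitor. Its log2 ratios of 2.81 and 3.66 gave a limma adjusted p of 0.0306 in this background. DUSP15 passed the filter only through the libraries with the XPO1 inhibitor, so this p is a description. PPDPF stood in PLC at 708.8 FPKM with the combination against 175.1 FPKM with the CDK4/6 inhibitor, and in 97H at 306 FPKM with the combination against 88.23 FPKM with the CDK4/6 inhibitor. PHB2 and NPM3 were again lower, by 1.07 and 1.33 and by 1.55 and 1.39.

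Others differed between the backgrounds, although no test of that difference was made. CYR61 was at 299.5 FPKM with the combination against 169.8 FPKM with the CDK4/6 inhibitor in PLC, and at 75.62 FPKM with the combination against 20.35 FPKM with the CDK4/6 inhibitor in 97H, ratios of 0.82 and 1.84. The CDK4/6 inhibitor libraries stood above the controls. BIRC5 was at 3.633 FPKM with the combination against 47.98 FPKM with the CDK4/6 inhibitor in PLC, and at 9.588 FPKM with the combination against 65.37 FPKM with the CDK4/6 inhibitor in 97H, ratios of -3.40 and -2.65 beside -0.85 and -0.75 for the inhibitor alone. The G2 and mitosis median was -2.16 in PLC and -1.46 in 97H in this background. UBD, EDN1, ANXA3 and HAPLN3 were not higher in PLC here (-0.02, -0.16, -1.10 and -1.26), and SREBF1 was 1.17 in PLC. XPO1 was at 18.15 FPKM with the combination against 20.63 FPKM with the CDK4/6 inhibitor in PLC, and at 21.74 FPKM with the combination against 5.714 FPKM with the CDK4/6 inhibitor in 97H. Here the larger XPO1 ratio was that of 97H, and the GC trends of the 2 lines were likewise exchanged (rho 0.576 in PLC and -0.392 in 97H). Across genes the ratios alone and with the CDK4/6 inhibitor had a Spearman correlation of -0.33 in PLC and 0.185 in 97H, and of 0.093 and 0.499 with the trends removed.

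Averaged over both backgrounds, 5 of 10221 genes passed (0.0489%). DUSP15 rose by 2.80 on the log2 scale (SE 0.28, limma adjusted p = 0.0139), CYR61 by 2.03 (adjusted p = 0.026) and PPDPF by 1.89 (adjusted p = 0.026). The value for DUSP15 is a description, since it passed the filter only through the libraries with the XPO1 inhibitor. MYBL2 fell by 2.08 (adjusted p = 0.0265) and BIRC5 by 1.91 (adjusted p = 0.0499). All 5 had the same direction in the 4 pairs of libraries, which is a description, since their average over these pairs chose them. For MYBL2 and BIRC5 most of the average came from the pairs with the CDK4/6 inhibitor, and no gene passed in this average without the PLC control, the 97H control or either combination library. Without the PLC or the 97H XPO1 inhibitor library 23 and 22 passed, and without the PLC or the 97H CDK4/6 inhibitor library 99 and 52.

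**Figure D5:**
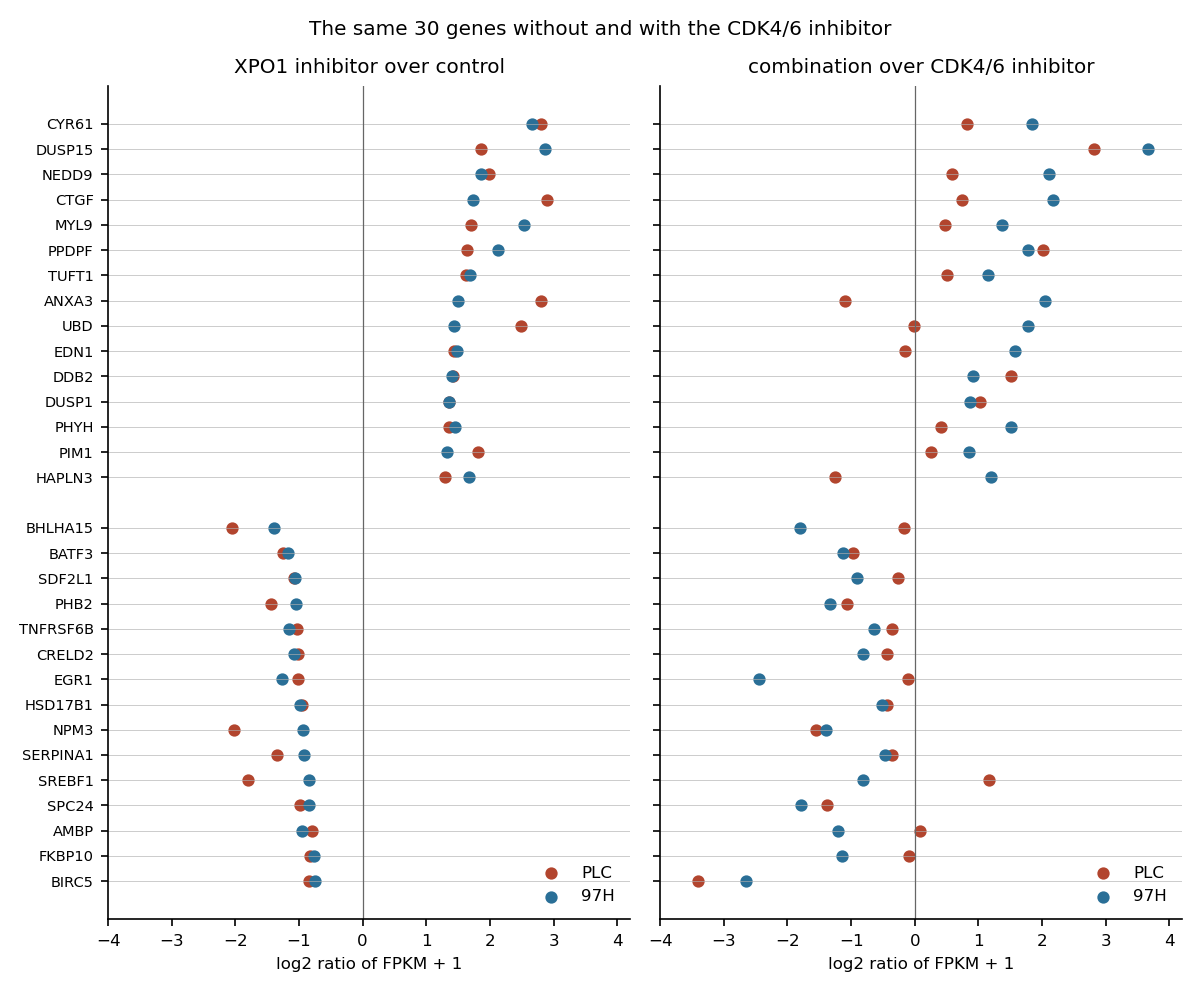
Log2 ratio of FPKM + 1 (horizontal axis) of the 15 genes higher and the 15 lower in both lines, for the XPO1 inhibitor over control (left) and the combination over the CDK4/6 inhibitor (right), with 1 point for PLC (red) and 1 for 97H (blue). The left panel was used to choose the genes. In the right panel 11 of the 15 upper and 13 of the 15 lower genes have the same direction in both lines, and BIRC5 lies at -3.40 and -2.65.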

How the data were processed

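RNA was extracted with Trizol and made into TruSeq libraries, per the labels' protocols. Per the submitters' processing notes, CASAVA 1.8.2, STAR 2.4.2g1, featureCounts of Subread and GRCh38 were used. The authors' deposited FPKM cover 20030 entries in 10 libraries. How counts became FPKM, and any scaling between libraries, is not stated in these sources, so no count model was run and no interval on a level can be given. In 27 entries a symbol turned into a date was restored from its accession. GENCODE 29 matched 19474 entries (97.2%) and gave positions, and GC content for 99.8% of tested genes.

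The deposited FPKM were taken to log2(FPKM + 1) and fitted in R 4.3.3 by limma 3.58.1 (two-sided, eBayes with variance trend), with treatment and line as terms over the 8 PLC and 97H libraries (3 residual degrees of freedom). Standard errors pool the spread of all treatments between the lines, and nothing says that libraries came from separate cultures of a line. Genes called have an adjusted p under 0.05. Trends on GC content and length were removed per library by lowess with a span of 0.3. The fit was tested on simulated data.

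Pairing is by cell line, from the labels: the PLC minus 97H difference correlated at 0.789 across genes between the XPO1 inhibitor and control libraries. Libraries correlated at 0.923 within PLC and 0.975 within 97H, and at 0.718 between the control libraries. Named genes are the 15 on each side with the largest smaller ratio of the 2 lines, 5 opposite genes each way (1 of them is not reported here), all exportin and candidate response genes, genes called, and up to 3 members of each list by smallest p. The members and the 36 lists were chosen with earlier results of these data known. RefSeq promoters were searched on both strands.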

Additional observations from a re-analysis of the deposited data

Results flagged for a closer look

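The genes below, 9 of the 10 with the largest opposite ratios, were picked out because the PLC pair moved one way and the 97H pair the other, with 1 library per arm, and the difference between the lines was not tested. As PLC minus 97H log2 ratio, it was 2.97 for TFRC (transferrin receptor), 2.78 for CTSL (cathepsin L), 2.42 for PRKDC (a DNA repair kinase), 2.21 for ANLN (anillin, of the cleavage furrow) and 2.30 for ITGA6 (an integrin subunit). It was -3.12 for HSD11B2 (which inactivates cortisol), -2.91 for SERPINF1 (a secreted serpin), -2.49 for SLC2A1 (a glucose transporter) and -2.85 for TUBB4A (a tubulin). The GC content was 40.0% to 52.5% in the first 5 and 54.8% to 63.2% in the last 4. With GC content and length trends removed all 9 still had opposite signs, with PLC ratios of 0.23 for ANLN to 1.64 for CTSL in the first 5 and of -0.88 for HSD11B2 to -1.38 for SERPINF1 in the last 4.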

How the results depend on the processing

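The count of 0 genes called for the XPO1 inhibitor alone was 1 under quantile normalization and under median ratio scaling (CYR61 each time), 2 with GC content and length trends removed in the fit with the replicate block (CYR61 and PPDPF), and 6 in a fit of only the 4 libraries with the replicate block (CYR61, CTGF, DUSP15, MDK, MYL9 and PPDPF). Without the replicate block it was 0, with 17 unadjusted p under 0.05. Leaving out 1 library gave 0 to 19. The average over both backgrounds called 5 genes, 13 with a pseudocount of 0.1, 0 with no filter on low values, 1 with the filter over all 10 libraries, 3 with a mean of at least 5 FPKM, 16 under quantile normalization, 27 under median ratio scaling, 90 (35 up and 55 down) with trends removed, 0 without the replicate block, 1 with a single prior variance, 11 with all 10 libraries fitted and 0 to 99 without 1 library. Genes 2-fold higher in both lines were 48, and 110 with a pseudocount of 0.1, 172 at 1.5-fold and 7 at 3-fold. Genes 2-fold lower were 7, and 15 with a pseudocount of 0.1, 3 with a mean of at least 5 FPKM, 4 with trends removed, 43 at 1.5-fold and 0 at 3-fold. Of the 15 higher genes 2 were 2-fold higher with the CDK4/6 inhibitor present, and 6 at 1.5-fold, an alternative chosen after seeing the data. Log2 differences that changed sign were XPOT (-0.028 under quantile normalization, -0.030 under median ratio scaling, -0.25 with trends removed, -0.11 with 10 libraries, -1.07 to 1.23 without 1 library, below 0 without the PLC control or the PLC XPO1 inhibitor at -0.17) and XPO7 (-0.044 with trends removed, -0.20 to 0.68 without 1 library). Over the fits without 1 library, the range was -0.11 to 0.88 for KPNA6, -1.32 to 0.12 for NUP210, -0.094 to 1.22 for PSMA5 and -2.64 to 0.60 for ISG15, with the sign changed without the PLC control, and -0.76 to 0.063 for CSE1L, -0.57 to 0.32 for XPO5, -1.39 to 0.29 for KPNA2, -0.98 to 0.24 for RAD51AP1 (0.11 without the 97H XPO1 inhibitor) and -0.049 to 1.39 for OAS2, changed without the 97H control. The cause was not tested. The GC content trends of both lines kept their direction in genes of at least 5 FPKM (-0.728 in PLC and 0.44 in 97H). Depth is unknown, so low FPKM values carry an unknown counting error.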
